A study of Mus musculus with 6 samples.

Results

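The genes of the MHC class II presentation pathway were followed in RNA-seq counts of CD43- splenic B-cells. The 10 genes were listed by name for their role in the pathway, with earlier results of these data known. The genes were H2-Aa, H2-Ab1, H2-Eb1, Cd74, H2-DMa, H2-DMb1, H2-DMb2, H2-Oa, H2-Ob and Ciita. They are 10 of the 46963 gene names in the count table, and all 10 passed the filter that kept 14600 genes for the model (10 counts or more in 2 or more libraries). Every member held between 106 and 57227 counts in each library. MHC class II molecules display peptides from endosomes to CD4+ T-cells. The alpha and beta chains assemble with the invariant chain Cd74, which fills the peptide groove and directs the complex to endosomes, where the H2-DM dimer exchanges the remnant of the invariant chain for peptide and the H2-DO dimer restrains H2-DM. B-cells express the pathway constitutively under Ciita, a co-activator that does not bind DNA itself and is recruited by RFX, CREB and NF-Y factors to the X and Y boxes of class II promoters, and the pathway is known to be shut off in plasma cells.

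The 6 libraries came from adult mice of 3 genotypes, all in a 129 background, 1 library per genotype and culture state. The wt mice carried no deletion, the Eμ-deficient mice lacked the Eμ enhancer (the methods name the strain EμMAR-deficient), and the 3′RR-deficient mice lacked the 3′ regulatory region of the immunoglobulin heavy chain locus. Resting cells received no stimulus. Stimulated cells spent 2 days with lipopolysaccharide (LPS), a mitogen for B-cells made by bacteria, at 5 μg per ml (1 protocol text in the labels has mg in place of μg). By the labels the resting cells were kept for 2 days as well, but by the methods they were collected before stimulation, so that LPS and culture cannot be told apart. By the labels each library pooled 2 mice. The methods describe more than 1 pool per genotype, and whether a column of the table joins several pools is not given in the sources used here. The difference between genotypes within a state has no replicate check.

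Genes received between 9111974 and 21998587 counts per library. The 5 B-cell markers Ms4a1, Cd79a, Cd79b, Pax5 and Cd22 were detected in every library, with a summed level of 1392 to 2401 CPM (counts divided by TMM-scaled library sizes and put on a common scale). Strand was checked on 421 pairs of a protein coding gene and an antisense gene inside it, and the coding gene held more counts in 416. The levels below are therefore read as sense transcripts. The LPS libraries of 3′RR-deficient and wt cells differed most in 35 spike-in RNAs, whose log2 ratios had an SD of 1.27, against 0.16 for the same genotypes at rest, 0.48 for Eμ-deficient over wt at rest and 0.44 after LPS. Set against the resting library of the same genotype, the LPS library had a spike-in SD of 0.78 in wt, 0.63 in 3′RR-deficient and 0.13 in Eμ-deficient cells. Both the wt and the 3′RR-deficient LPS libraries thus differed more from their own resting library than the Eμ-deficient one did. The reads of these 129 mice were mapped to the mm10 reference, so that reads of polymorphic class II alleles can be missed, equally in all genotypes if their class II alleles are the same.

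The 8 H2 members lie on chromosome 17 of mm10 (GRCm38), between 34092340 at the start of H2-Oa and 34316674 at the end of H2-Eb1. In the GENCODE M21 annotation H2-Aa spans 34282744 to 34287823 on the minus strand and the others are on the plus strand. Ciita lies on chromosome 16 (10480059 to 10528418, plus strand). H2-DMb1 and H2-DMb2 are neighbouring copies whose longest transcripts were 90.7% identical over 1209 aligned bases. Of the stretches of 150 nt in their transcripts, 4.71% of those of H2-DMb1 and 4.14% of those of H2-DMb2 were found in the other gene, so that a small part of their reads could be assigned to either. None of the other 8 members shared such a stretch with another gene in the annotated transcripts.

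RefSeq promoters (GRCm38.p6) were at hand for 7 of the 10 members. The 120 bases before the RefSeq start are shown for 6 of them. For H2-DMb1, H2-DMb2, H2-Oa and H2-Ob this start lies inside the GENCODE gene. These 6 were shown because core letters of the Y box, or of the X box and the Y box of class II promoters, can be read in them. Capitals mark GCAAC, the core letters of the X box bound by RFX, and ATTGG or its reverse complement CCAAT, the core of the Y box bound by NF-Y. All are written 5′ to 3′ on the strand of the gene. The regions are chr17:34287824-34287943 for H2-Aa (minus strand) and, on the plus strand, chr17:34305747-34305866 for H2-Eb1, chr17:34092259-34092378 for H2-Oa, chr17:34238785-34238904 for H2-Ob, chr17:34153071-34153190 for H2-DMb1 and chr17:34145129-34145248 for H2-DMb2.
H2-Aa: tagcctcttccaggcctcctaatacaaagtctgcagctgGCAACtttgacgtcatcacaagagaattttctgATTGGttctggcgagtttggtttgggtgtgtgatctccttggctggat
H2-Eb1: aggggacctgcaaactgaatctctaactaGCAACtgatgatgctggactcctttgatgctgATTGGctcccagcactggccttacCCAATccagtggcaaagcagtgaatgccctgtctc
H2-Oa: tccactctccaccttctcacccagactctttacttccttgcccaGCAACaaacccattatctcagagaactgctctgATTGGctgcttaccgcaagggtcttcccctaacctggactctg
H2-Ob: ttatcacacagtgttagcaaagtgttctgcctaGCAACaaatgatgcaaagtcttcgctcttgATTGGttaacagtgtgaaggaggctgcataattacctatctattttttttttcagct
H2-DMb1: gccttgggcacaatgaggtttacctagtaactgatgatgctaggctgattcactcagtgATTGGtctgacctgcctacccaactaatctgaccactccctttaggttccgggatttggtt
H2-DMb2: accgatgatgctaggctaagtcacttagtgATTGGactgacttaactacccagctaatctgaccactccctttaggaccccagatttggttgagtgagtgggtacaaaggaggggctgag
H2-Aa, H2-Eb1, H2-Oa and H2-Ob each carried the X box core followed by the Y box core on the strand of the gene, with 28, 27, 28 and 25 bases between them. The Y box core began 48, 59, 43 and 57 bases before the start, respectively, and H2-Eb1 held its reverse complement as well, 35 bases before the start. This pair of cores, in this order within 40 bases on the strand of the gene, was found in the 250 bases before the start of 0.75% of 32851 promoters in the table. H2-DMb1 and H2-DMb2 carried the Y box core, 61 and 90 bases before the start, without the exact letters GCAAC. Letters close to GCAAC were not searched for, so an X box with other letters can be present. H2-DMb1 held gtaactgatgatgct before its Y box core, where H2-Eb1 held GCAACtgatgatgct. Over both strands, the Y box core was found in 33.9% of all promoters and the X box core in 29.9%. H2-DMa, with 2 annotated promoters before starts inside its GENCODE gene, carried no such pair in either. Any other start of H2-DMa was not examined. A match is a description of letters and not evidence of binding.

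All 10 genes fell after LPS stimulation. When genotype and state were fitted together as additive effects (edgeR, quasi-likelihood test), each of the 10 was lower in LPS-stimulated cells (Benjamini-Hochberg adjusted p over all 14600 genes between 0.000126 and 0.0044), with a median log2 fold change of -1.82 and a range from -2.52 to -1.62, that is 5.75-fold to 3.08-fold lower. Of all genes tested 21.1% were called lower and 19.7% higher, and their median log2 fold change was -0.07. Among genes with a mean of at least 100 CPM, 19.2% were called lower, and a coefficient as low as that of the least changed member, or lower, was found for 11.9% of all genes. The 3 LPS libraries lay below the 3 resting libraries for all 10 members, as they did for 27.3% of all genes tested. The error of this fit measures how far the 6 libraries depart from additive effects, which is not the spread between mice. An exact permutation test of 3 libraries against 3 that ignores genotype could not go below p = 0.1. Permutation within genotypes, the block of this fit, allows still fewer arrangements. In bulk RNA, fewer cells that express a gene and less of its RNA per cell cannot be told apart.

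**Figure D1:**
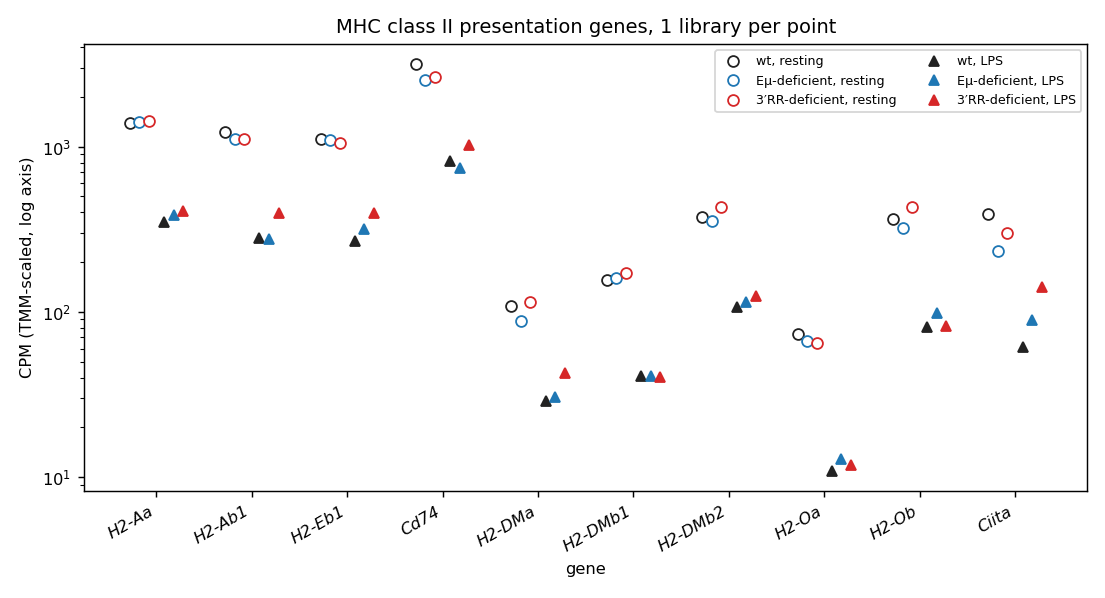
Level of each gene in CPM (log axis) in the 6 libraries, 1 point per library, open circles for resting and filled triangles for LPS-stimulated cells, coloured by genotype. For all 10 genes every triangle lies below every circle.

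The classical chains were the most abundant class II genes after Cd74. H2-Aa, which encodes the alpha chain of the I-A molecule, had 1383 CPM in wt, 1418 in Eμ-deficient and 1436 in 3′RR-deficient resting cells. After LPS it had 349, 385 and 409 CPM, respectively. The genotypes lay close together in each state and the states did not overlap (log2 fold change -1.89, standard error 0.27, edgeR adjusted p = 0.00086).
H2-Ab1, the beta chain of I-A, had 1227 CPM in wt, 1119 in Eμ-deficient and 1120 in 3′RR-deficient resting cells, and 279, 278 and 399 CPM after LPS (log2 fold change -1.88, standard error 0.29, edgeR adjusted p = 0.00112). H2-Eb1, the beta chain of the I-E molecule, had 1120, 1091 and 1049 CPM at rest and 268, 316 and 396 CPM after LPS in the same order (log2 fold change -1.75, standard error 0.28, edgeR adjusted p = 0.00151). For both genes the 3′RR-deficient library was the highest of the LPS libraries and not of the resting ones. An antisense gene that overlaps H2-Eb1, Gm20513, held between 23 and 392 counts per library. The antisense genes that overlap Ciita (Dexi, 65 to 157 counts) and H2-Oa (BC051537, 1 to 14 counts) held fewer counts than the member in every library.

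Cd74, the invariant chain, lies on chromosome 18 (60803848 to 60812652, plus strand) and was the highest member in CPM. It had 3148 CPM in wt, 2520 in Eμ-deficient and 2627 in 3′RR-deficient resting cells. After LPS it had 819, 739 and 1020 CPM (log2 fold change -1.69, standard error 0.29, edgeR adjusted p = 0.00216). Cd74 made up 33.9% to 37.7% of the summed CPM of the 10 genes in resting and 35.1% to 40.1% in LPS-stimulated libraries, so that its share overlapped between the states although the sum fell. That sum was 8349, 7376 and 7747 CPM in resting wt, Eμ-deficient and 3′RR-deficient cells and 2045, 2105 and 2665 CPM after LPS. Mir5107, a microRNA annotated inside Cd74 on the same strand, held 65 to 1229 counts per library, which are not part of the Cd74 counts.

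The H2-DM genes fell as well. H2-DMa, the alpha chain of H2-DM, had 108 CPM in wt, 88.4 in Eμ-deficient and 115 in 3′RR-deficient resting cells, and 29.0, 30.7 and 42.7 CPM after LPS (log2 fold change -1.62, standard error 0.23, edgeR adjusted p = 0.000838). Its coefficient was the closest to 0 of the 10, but in no single genotype was its ratio, since H2-DMb2 changed less in wt cells (-1.81 against -1.90) and Ciita less in the mutants. Brd2, which overlaps H2-DMa on the other strand, held 1664 to 3798 counts per library, more than H2-DMa in each. H2-DMb1, 1 of the 2 beta chain genes, had 156, 159 and 172 CPM at rest and 40.6, 40.7 and 40.2 CPM after LPS, the narrowest spread between genotypes of any member in LPS-stimulated cells (log2 fold change -2.00, standard error 0.23, edgeR adjusted p = 0.000319).
H2-DMb2, the other beta chain gene, had 377, 356 and 431 CPM at rest and 107, 115 and 124 CPM after LPS (log2 fold change -1.75, standard error 0.25, edgeR adjusted p = 0.000853). It stayed above H2-DMb1 in CPM in every library. The ratio of H2-DMb2 to H2-DMb1, in CPM per kb of exon, lay between 2.15 and 2.41 in resting libraries and between 2.54 and 2.98 after LPS.

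The 2 genes of H2-DO, the modulator of H2-DM, had the lowest coefficients of the 10. Within the genotypes, H2-Oa had the lowest log2 ratio in each of the 3, whereas H2-Ob (-1.71) lay above H2-Ab1 (-2.01) in Eμ-deficient cells and above Ciita in wt cells, and without the 3′RR-deficient libraries its coefficient (-1.95) lay above that of H2-Ab1 (-2.09). H2-Oa, the alpha chain, had 73.2 CPM in wt, 66.4 in Eμ-deficient and 64.8 in 3′RR-deficient resting cells. After LPS it had 10.9, 12.8 and 11.9 CPM, from 228, 137 and 106 counts (log2 fold change -2.52, standard error 0.23, edgeR adjusted p = 0.000126). H2-Ob, the beta chain, had 365, 324 and 432 CPM at rest and 81.3, 98.7 and 81.6 CPM after LPS (log2 fold change -2.10, standard error 0.27, edgeR adjusted p = 0.0005). The level of H2-DMa relative to H2-Oa, each in CPM per kb of exon, was 0.604 in wt, 0.543 in Eμ-deficient and 0.726 in 3′RR-deficient resting cells and 1.08, 0.977 and 1.46 after LPS, with no overlap between the states. The ratio of H2-Ob to H2-Oa was 1.28 to 1.74 at rest and 1.79 to 2.01 after LPS. The ratio of H2-Ab1 to H2-Aa, in contrast, overlapped between the states (1.15 to 1.31 at rest and 1.07 to 1.44 after LPS). So did the ratio of H2-DMb1 plus H2-DMb2 to H2-DMa (9.82 to 11.7 and 7.69 to 10.2). The ratio of Cd74 to H2-Ab1 overlapped too (3.44 to 3.93 and 3.91 to 4.50). How often the ratios of other pairs of genes separate the states was not tested.

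Ciita, the transactivator of the pathway, was the member that differed most between genotypes. It had 392 CPM in wt, 233 in Eμ-deficient and 301 in 3′RR-deficient resting cells, and 61.6, 89.1 and 141 CPM after LPS. The wt library was thus the highest at rest and the lowest after LPS, and the states did not overlap (log2 fold change -1.71, standard error 0.34, edgeR adjusted p = 0.0044, the largest of the 10).

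**Figure D2:**
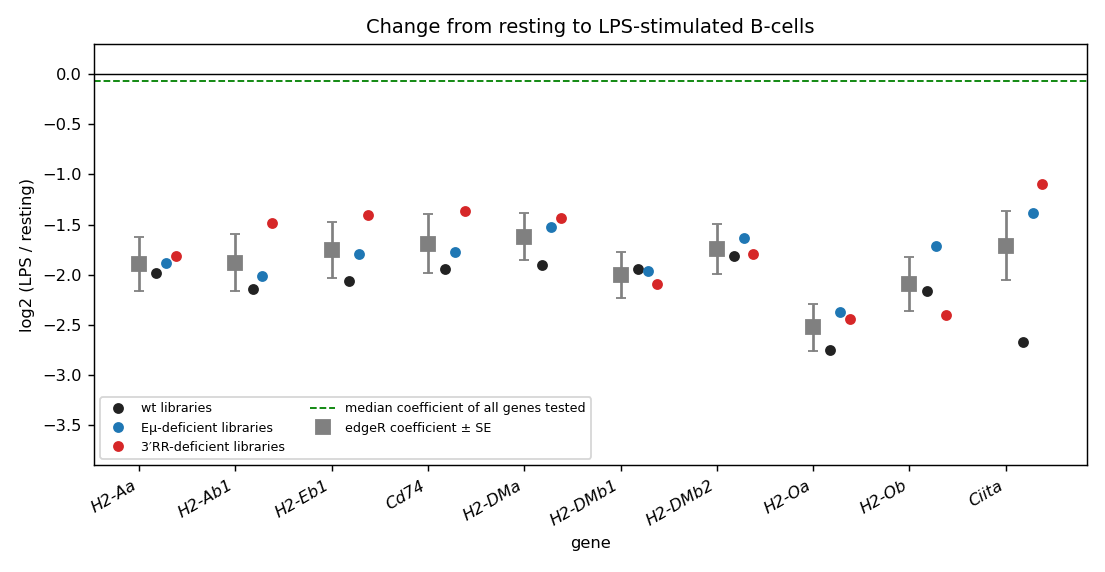
Log2 change from resting to LPS-stimulated cells for each gene. Grey squares are the edgeR coefficient with its standard error, coloured points the ratio of the 2 libraries of each genotype, and the dashed line the median coefficient of all genes tested. All points lie below -1, and the 3 genotypes are furthest apart for Ciita.

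Levels of different genes were compared per kb of annotated exon. At rest the order, by the mean over the 3 resting libraries, was Cd74 (1647 ± 200 CPM per kb, SD, n = 3), H2-Eb1 (559 ± 18.3), H2-Ab1 (450 ± 24.1), H2-Aa (372 ± 7.14), H2-DMb2 (222 ± 22.1), H2-DMb1 (96.7 ± 5.01), H2-Ob (69.4 ± 10.1), H2-Oa (48.4 ± 3.18), Ciita (32.4 ± 8.37) and H2-DMa (30.2 ± 4.05). Neighbours in this order did not overlap between libraries, except Ciita (24.4 to 41.1) and H2-DMa (25.6 to 33.4). After LPS, H2-Eb1 (138 to 204) and H2-Ab1 (108 to 155) overlapped too, and H2-Oa (7.75 to 9.12) fell among H2-DMa (8.40 to 12.4) and Ciita (6.46 to 14.7). These lengths join all annotated exons, 9535 nt for Ciita, 5380 nt for H2-Ob and 3448 nt for H2-DMa, so that rarely used exons lower the level of a gene.

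The fall after LPS was then read within each genotype, where each ratio compares 1 library with 1 library and no test was made. All 10 genes were at least 2-fold lower after LPS in wt cells (median log2 ratio -2.03), in Eμ-deficient cells (-1.78) and in 3′RR-deficient cells (-1.64). Of all genes tested 25.4%, 19.9% and 21% were at least 2-fold lower in these genotypes, with median log2 ratios of -0.08, -0.0003 and -0.09. In wt cells Ciita changed by -2.67 on the log2 scale (95% interval -2.76 to -2.59), against -1.39 (-1.49 to -1.28) in Eμ-deficient and -1.10 (-1.19 to -1.01) in 3′RR-deficient cells. These exact conditional binomial (Clopper-Pearson) intervals cover counting error only. The log2 ratio of Ciita in 3′RR-deficient cells was 1.57 above that in wt cells, and in Eμ-deficient cells 1.28 above. A gap of at least 1 in the same direction was seen for 16.9% and 12.9% of all genes tested, respectively. The next largest gaps between 3′RR-deficient and wt cells were those of H2-Eb1 (0.66), H2-Ab1 (0.65) and Cd74 (0.58). When the dependence of each library on transcript GC content (its GC trend) was taken out, these 3 gaps were 0.37, 0.02 and -0.02, and those of Ciita 1.05 and 0.92. Some other gaps widened. Between 3′RR-deficient and wt cells, that of H2-DMb1 went from -0.16 to -0.60 and that of H2-DMb2 from 0.02 to -0.36. Between Eμ-deficient and wt cells, that of H2-Ob went from 0.45 to 0.62. Without the GC trend, the medians of the 10 genes in wt, Eμ-deficient and 3′RR-deficient cells became -1.72, -1.71 and -1.67.

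Between genotypes, over both culture states, no member was called. For 3′RR-deficient against wt libraries the log2 fold changes ran from -0.03 for H2-Oa to 0.35 for Ciita, with edgeR adjusted p from 0.914 to 0.992 and 0 of 10 at an unadjusted p under 0.05. Of all genes tested 0.507% were called lower and 0.171% higher. For Eμ-deficient against wt libraries they ran from -0.24 for Cd74 to 0.09 for H2-Eb1, with edgeR adjusted p from 0.989 to 0.999 and again 0 of 10 at an unadjusted p under 0.05. Of all genes 0.253% were called lower and 0.911% higher. The DESeq2 Wald test also called 0 members in either comparison. Both comparisons share the wt libraries. The standard errors, 0.27 to 0.41 on the log2 scale, leave room for changes of moderate size. Each coefficient joins both culture states, so opposite differences at rest and after LPS cancel in part. For Ciita the log2 ratios at rest and after LPS were -0.38 and 1.19 for 3′RR-deficient over wt. For Eμ-deficient over wt they were -0.75 and 0.53. The fit thus cannot decide whether genotypes differ within 1 state.

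The libraries of the genotypes were then compared within each state, first at rest. The log2 ratio of 3′RR-deficient over wt resting cells had a median of -0.02 over the 10 genes and a range from -0.38 to 0.24, with 5 genes lower and 5 higher, while 48.1% of all genes tested were lower. Ciita was the lowest at -0.38 (95% interval -0.43 to -0.33) and H2-Ob the highest at 0.24 (0.20 to 0.29). The spike-in RNAs ran from -0.21 to 0.37, so that Ciita and Cd74 (-0.26) lay outside their range. For Eμ-deficient over wt resting cells the median was -0.14 and the range -0.75 to 0.04, with 8 genes lower, against 47.8% of all genes. Ciita was again the lowest, at -0.75 (-0.81 to -0.69), followed by Cd74 at -0.32 (-0.34 to -0.30) and H2-DMa at -0.29 (-0.40 to -0.19). The spike-in RNAs reached down to -0.47, and Ciita lay below them. No member differed by 2-fold in either comparison. The background was 3.95% of genes at least 2-fold lower and 5.38% higher for 3′RR-deficient, and 5.62% and 12.6% for Eμ-deficient cells.
After LPS most of the same ratios lay above 0. For 3′RR-deficient over wt cells 9 of 10 genes were higher and 1 lower, with a median log2 ratio of 0.27, and 45.1% of all genes tested were lower. Ciita, at 1.19 (95% interval 1.08 to 1.30), was the 1 member past 2-fold. Of all genes 15.9% were at least 2-fold higher and 10.7% lower. H2-Eb1 had 0.57 (0.50 to 0.63), H2-DMa 0.56 (0.37 to 0.75) and H2-Ab1 0.52 (0.46 to 0.58), whereas the intervals of H2-DMb1, H2-Oa and H2-Ob included 0. The log2 ratios of the spike-in RNAs between these libraries, centred on their median, reached down to -3.37, and their range held the ratio of every member. After the GC trend of the libraries was taken out, the median of the members was 0.0082 and Ciita had 0.71.
For Eμ-deficient over wt cells after LPS 8 of 10 genes were higher, with a median log2 ratio of 0.12, which was -0.0083 without the GC trend. Of all genes tested 47.9% were lower. Ciita had 0.53 (95% interval 0.41 to 0.65), H2-Ob 0.28 (0.17 to 0.39) and H2-Eb1 0.24 (0.18 to 0.30), and Cd74 was lower at -0.15 (-0.19 to -0.11). No member was past 2-fold, against 3.4% of all genes lower and 9.12% higher. The log2 ratios of the spike-in RNAs ran from -1.18 to 0.57.

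**Figure D3:**
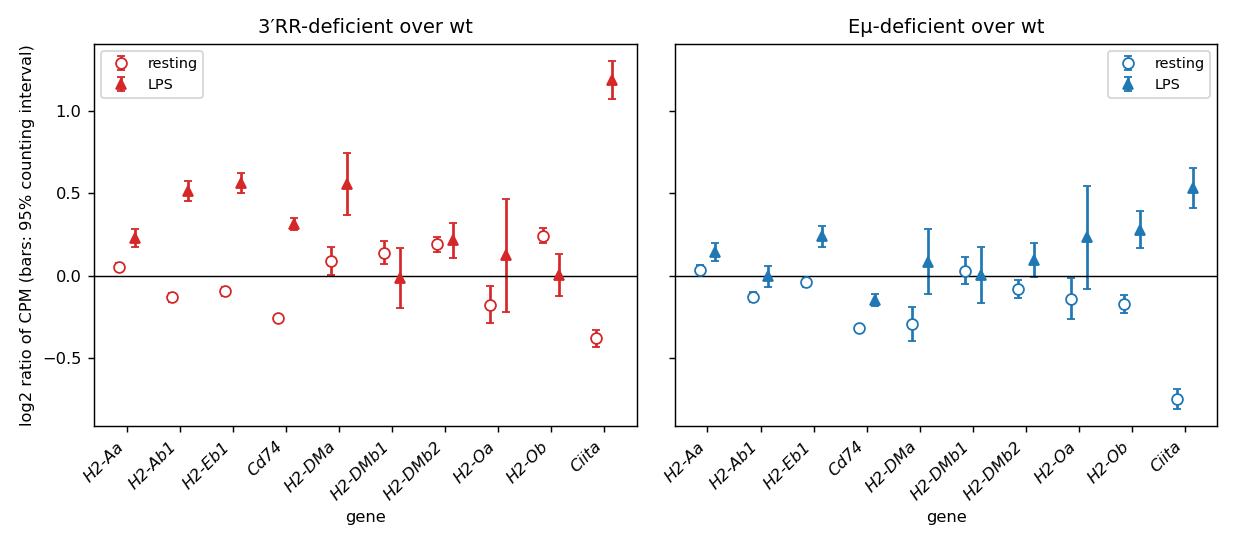
Log2 ratio of CPM of 3′RR-deficient (left) and Eμ-deficient (right) over wt libraries for each gene, open circles for resting and triangles for LPS-stimulated cells, with 95% counting intervals. Ciita lies furthest from 0, below it at rest and above it after LPS in both panels.

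The other genes of the pathway did not all follow the 10 members. Of 9 other class II genes and promoter factors, 8 passed the filter, and their median log2 fold change after LPS was 0.05. Of these 1 was called lower and 1 higher, against 21.1% and 19.7% of all genes tested. The lower gene was H2-Eb2, another class II beta chain gene, which fell from 53.4, 66.5 and 60.5 CPM in wt, Eμ-deficient and 3′RR-deficient resting cells to 21.6, 23.2 and 19.3 CPM (log2 fold change -1.49, standard error 0.22, edgeR adjusted p = 0.00103). The higher gene was Nfyb, a subunit of NF-Y, which rose from 15.0, 11.6 and 17.8 CPM to 33.5, 27.5 and 26.2 CPM (log2 fold change 0.99, standard error 0.25, edgeR adjusted p = 0.0116). The genes of the RFX complex, named for their role and outside the naming rule, were not called, with log2 fold changes of -0.58 for Rfx5 (edgeR adjusted p = 0.0593), 0.44 for Rfxap (0.313) and 0.16 for Rfxank (0.676). H2-Ea-ps, listed as a pseudogene by its name, held too few counts to be tested.

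Of 11 genes of antigen processing and class II turnover, 9 were called lower and 0 higher, against 21.1% and 19.7% of all genes tested, with a median log2 fold change of -0.96. March1, a ubiquitin ligase that removes class II from the surface, fell from 132, 129 and 129 CPM in wt, Eμ-deficient and 3′RR-deficient cells to 29.2, 31.6 and 22.7 CPM (log2 fold change -2.24, standard error 0.24, edgeR adjusted p = 0.000219). Ctsl, an endosomal protease, had a log2 fold change of -2.03 (edgeR adjusted p = 0.0009) at no more than 16.7 CPM in any library. March8, a relative of March1, had one of -1.49 (0.0174). Its level was 3.52, 20.3 and 3.99 CPM in wt, Eμ-deficient and 3′RR-deficient resting cells and 2.39, 3.75 and 1.46 CPM after LPS. The Eμ-deficient resting library thus stood far above the others. The smallest falls among those called were those of the protease gene Ctsh (-0.76, edgeR adjusted p = 0.0287), of Cd83, which opposes March1 (-0.81, 0.0236), and of the protease gene Lgmn (-0.84, 0.0367). Thus both March1, which lowers surface class II, and Cd83, which protects it, fell.

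Of 8 known regulators of Ciita, 2 were called lower and 1 higher after LPS, with a median log2 fold change of -0.31. These counts lie near the 21.1% and 19.7% of all genes tested. Prdm1, the repressor that silences Ciita in plasma cells, rose from 9.63, 20.3 and 5.69 CPM in resting wt, Eμ-deficient and 3′RR-deficient cells to 71.5, 101 and 88.1 CPM (log2 fold change 3.04, standard error 0.34, edgeR adjusted p = 0.000255). Bcl6, a repressor of the plasma cell fate, fell (-1.77, standard error 0.25, edgeR adjusted p = 0.000784), as did Spi1, a transcription factor of B-cells and myeloid cells (-0.82, standard error 0.22, edgeR adjusted p = 0.0164). Among the LPS libraries Prdm1 was highest in Eμ-deficient cells and Ciita in 3′RR-deficient cells.
The MHC class I genes, which load peptides from the cytosol, were mostly not called. Of 10 such genes 0 were called lower and 2 higher, against 21.1% and 19.7% of all genes tested, with a median log2 fold change of 0.14. The 2 were immunoproteasome subunits encoded between class II genes on chromosome 17, Psmb8 (1.12, standard error 0.26, edgeR adjusted p = 0.00856) and Psmb9 (1.26, standard error 0.26, edgeR adjusted p = 0.00496). They rose while the class II genes on either side fell. Between genotypes, 0 genes of these 4 lists were called in either comparison.

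**Figure D4:**
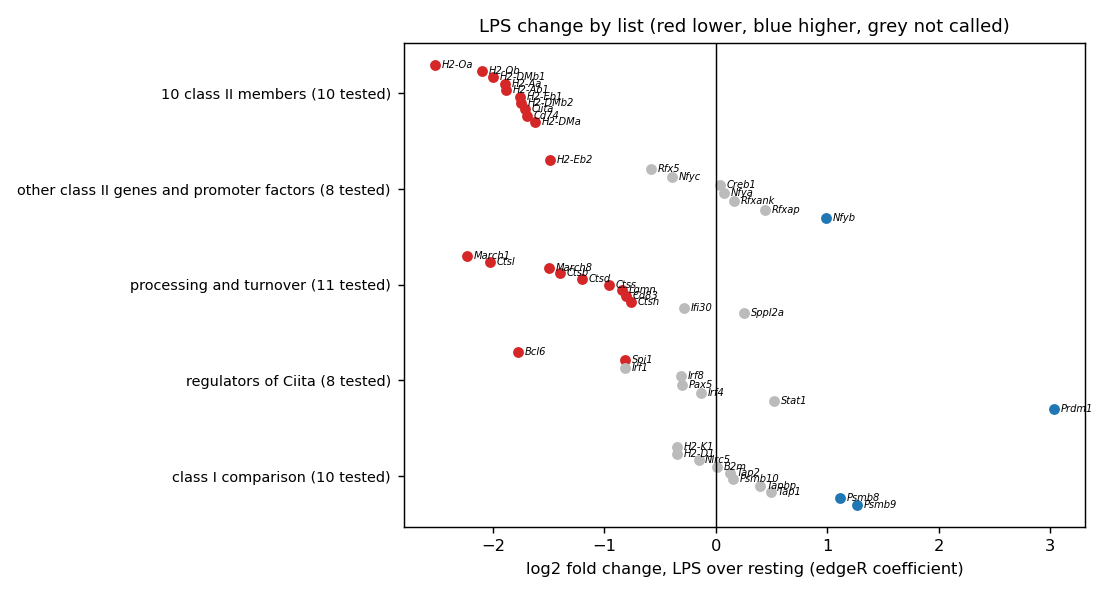
Log2 fold change from resting to LPS-stimulated cells (edgeR coefficient) for each gene by list, red for genes called lower, blue for genes called higher and grey for genes not called. The 10 class II genes are the top group, all called lower, whereas 0 of the 10 class I genes were called lower.

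Other cells, among them some that express MHC class II, could be present in the CD43- preparation. Most of the markers listed for them were called lower in the LPS libraries than in the resting ones. The summed level of 8 macrophage markers was 191 CPM in wt, 584 in Eμ-deficient and 227 in 3′RR-deficient resting cells and 15.8, 36.2 and 26.7 CPM after LPS, with 8 of 8 called lower, and after LPS C1qa was at 0 counts in wt, Cd14 in 3′RR-deficient and C1qb in both of these libraries. The summed level of 7 dendritic cell markers was 74.2 to 155 CPM at rest and 30.6 to 39.3 CPM after LPS, with 6 of 7 called lower and Clec9a at 0 counts in the wt and 3′RR-deficient LPS libraries. Most of the sum after LPS was Flt3 (27.7 to 29.3 CPM), the marker that was not called, and the other 6 went from 57.1 to 122 CPM at rest to 2.92 to 10.1 CPM after LPS. The summed level of 6 T-cell markers was 25.3 to 43.5 CPM at rest and 4.88 to 15.0 CPM after LPS, with 5 of 6 called lower, Cd3e at 0 counts in wt and Cd8a in wt and 3′RR-deficient cells after LPS. Without Lck, which was not called, it was 14.1 to 30.9 CPM at rest and 0.335 to 3.56 CPM after LPS. Flt3 and Lck were set apart after their values were seen. Of all genes tested 21.1% were called lower and 19.7% higher after LPS. The part of these cells in the fall of the class II genes was not tested. The Eμ-deficient resting library held the highest sums of macrophage and dendritic cell markers and the lowest sum of the 10 class II genes at rest. It also held the lowest sum of B-cell markers at rest, 1546 CPM against 2178 in wt and 2401 in 3′RR-deficient cells, and the highest sum of plasma cell markers. The summed level of the 5 B-cell markers was 1392 to 1631 CPM after LPS, and 1 of 5, Cd22, was called lower.
The 5 plasma cell markers summed to 546, 2232 and 591 CPM in resting wt, Eμ-deficient and 3′RR-deficient cells and to 581, 1589 and 891 CPM after LPS. Of these 2 were called higher after LPS, Prdm1 and Xbp1, and 1, Jchain, which encodes the joining chain of secreted antibodies, was called higher in Eμ-deficient against wt libraries (log2 fold change 3.55, edgeR adjusted p = 0.00748). Their part in the changes of the class II genes was not tested.

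**Figure D5:**
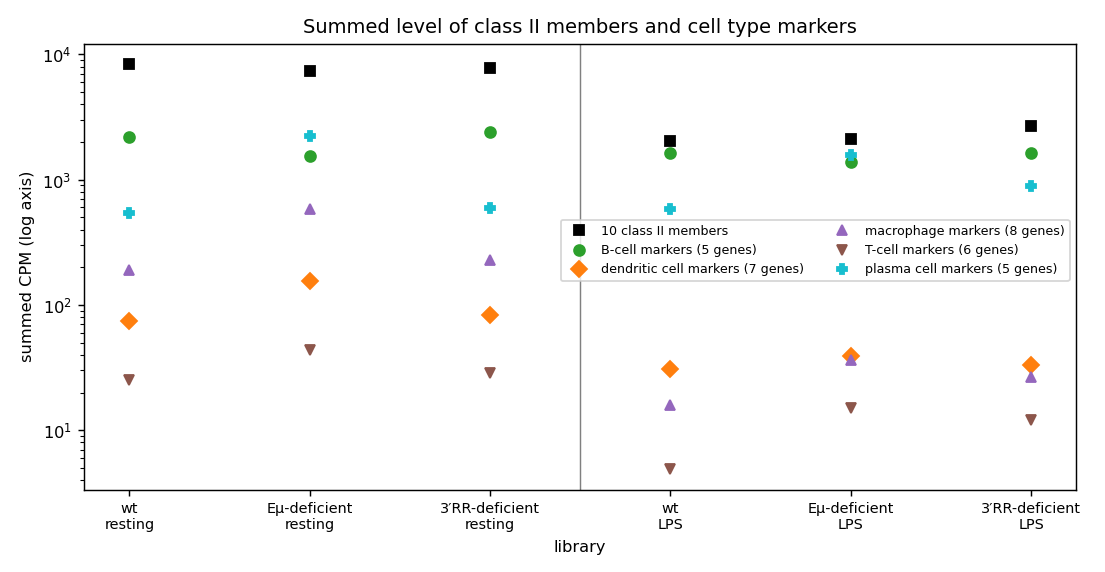
Summed CPM (log axis) of the 10 class II genes and of 5 marker lists in each library, resting on the left and LPS-stimulated on the right. The class II sum falls from at least 7376 to at most 2665 CPM, and the macrophage sum from at least 191 to at most 36.2 CPM.

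Across the 6 libraries the 10 members varied together, with Pearson correlations of their log2 CPM between 0.90 and 0.997 over 45 pairs (n = 6 libraries, which share the 2 culture states). Of 7913 other genes with a mean of at least 10 CPM, the 5 most like the mean profile of the members were Sun2, Oser1, Per1, Kdm6b and BC029214, each with r of 0.998 or 0.999 over the 6 libraries. Sun2, which encodes a nuclear envelope protein, had 227, 190 and 217 CPM at rest and 44.8, 44.5 and 57.6 CPM after LPS in wt, Eμ-deficient and 3′RR-deficient cells. The clock gene Per1 had 304, 235 and 320 CPM and fell further, to 9.80, 15.7 and 23.4 CPM. These likenesses rest mostly on the step between the states.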

How the data were processed

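Total RNA depleted of ribosomal RNA went into stranded libraries that the authors read as pairs of 150 nt and aligned to mm10 with STAR 2.4.0a, using Ensembl gene models. Per the labels and methods, featureCounts (Subread 1.4.6-p1, strand option 1) then counted fragments for each gene name, multi-mapping reads included. The authors deposited raw counts for 47055 names. The 92 spike-in RNAs among them name no gene, took 4.75% to 7.1% of the counts, and entered neither library sizes nor tests.

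The 10 genes and all gene lists were chosen with earlier results of these data known. Library sizes were scaled by TMM, and the quasi-likelihood test of edgeR 4.0.16 (R 4.3.3) was run with additive effects of genotype and state (2 residual degrees of freedom). The 14600 genes that reached 10 counts in 2 or more libraries were tested, at a Benjamini-Hochberg adjusted p under 0.05. Standard errors are the log2 fold change over the root of the F statistic. Within a state, ratios of CPM were taken with counts under 3 set to 3 and exact intervals from scipy 1.17.1. Spike-in ratios used RNAs with at least 100 counts in every library. Exon lengths, GC content (longest transcript) and coordinates came from GENCODE M21, which held 44131 of the names. The fit was tested on simulated counts. All 10 members were named; of the other 4 lists, the genes called in any comparison, or the 3 lowest and 3 highest of them where over 6 were called. The alternatives were other scalings, DESeq2 1.42.0, other filters, removal of the GC trend, log2(CPM + 1) ratios, no genotype term and fits without a genotype. Another marker of the B-cell list is not reported here.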

Additional observations from a re-analysis of the deposited data

Results flagged for a closer look

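In 7 cases a gene lay on opposite sides of wt in the culture states, with both counting intervals excluding 0. The share of all genes tested that meets this rule was not determined. Intervals are narrow for genes with many counts, so the number of cases does not set the members apart from other genes. With 1 library per genotype and state, these differences between states were not tested.

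For 3′RR-deficient over wt, the log2 ratio after LPS exceeded that at rest by 1.57 for Ciita (from -0.38 to 1.19), by 0.66 for H2-Eb1 (-0.09 to 0.57), by 0.65 for H2-Ab1 (-0.13 to 0.52) and by 0.58 for Cd74 (-0.26 to 0.32). Without the GC trend, the ratios after LPS were 0.71 for Ciita, 0.33 for H2-Eb1, -0.07 for H2-Ab1 and -0.24 for Cd74, so that the last 2 no longer changed side. The spike-in SD between these LPS libraries was 1.27, and its part in these ratios was not tested.

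For Eμ-deficient over wt, the log2 ratio after LPS exceeded that at rest by 1.28 for Ciita (from -0.75 to 0.53), by 0.45 for H2-Ob (-0.17 to 0.28) and by 0.27 for H2-Eb1 (-0.04 to 0.24). Without the GC trend, Ciita had -0.56 at rest and 0.36 after LPS, H2-Ob -0.37 and 0.25, and H2-Eb1 -0.02 and 0.08.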

How the results depend on the processing

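All 10 members remained lower after LPS and called in each of the 10 alternative fits, 100 of 100 values, with log2 fold changes from -2.63 to -1.22 and adjusted p up to 0.0424, the latter without the Eμ-deficient libraries. No member was called between genotypes in any alternative fit. Leaving out a genotype moved the number of all genes called lower after LPS from 3079 to between 1845 (without the Eμ-deficient libraries) and 3229. The genes called between 3′RR-deficient and wt libraries were 99, against 178 with the DESeq2 Wald test, 339 without a filter, 31 with at least 10 counts in every library and 177 in the fit to these genotypes alone, and those between Eμ-deficient and wt 170, against 340, 605, 96 and 393. The share of higher genes among those called after LPS stayed within 10 percentage points of 48.4% (43.1% to 53.4%). The median of all genes after LPS was -0.16 with scaling by the total count, against -0.07.

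Of the medians of the members, 3′RR-deficient over wt at rest was -0.21 with scaling by the total count and after LPS 0.0082 without the GC trend. Eμ-deficient over wt at rest was -0.33 and -0.046, respectively, and after LPS -0.0083 without the GC trend. LPS over resting was -2.27 and -1.72, respectively, in wt, and -1.71 without the GC trend in Eμ-deficient cells.

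Uncalled genotype coefficients close to 0 changed sign. For 3′RR-deficient against wt these were Cd74 (-0.048 by total count, -0.025 without a filter, -0.23 without the GC trend, -0.014 in the fit to these genotypes), H2-DMb1 (-0.014 by total count, -0.11 without the GC trend) and H2-Ab1 (-0.076 without the GC trend). For Eμ-deficient against wt, values by total count were -0.063 for H2-DMb1, -0.075 for H2-DMb2, -0.051 for H2-Oa and -0.013 for H2-Ob, without a filter -0.047, -0.058 and -0.026 for the first 3, and without the GC trend -0.034 for H2-Aa, -0.011 for H2-DMb1, -0.043 for H2-DMb2 and -0.052 for H2-Ob. With DESeq2 size factors they were -0.00049 for H2-DMb1 and -0.011 for H2-DMb2, and with the DESeq2 Wald test -0.00041 and -0.012. The cause of these shifts was not tested. Genotype served as the block of the LPS comparison, and all 10 members were called without it too. Each group has 1 library, and depth limits the least counted members, such as H2-Oa with 106 counts.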
